A study of Mus musculus with 18 samples.

Results

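The genes described here are 37 mouse genes of the lysosome, excluding the cathepsins: soluble hydrolases, the activator and transport proteins that work with them, and proteins of the lysosomal membrane. They were chosen by symbol from 48440 genes in the deposited table, and each symbol occurs once there. The rule uses no measured value, although the list was drawn up with earlier results of these data known. They comprise 9 glycosidases, 5 sulfatases, 9 lipid-handling proteins, 8 membrane proteins and 6 other proteins of the lysosome. All 37 passed the filter on low values and were tested.

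Lysosomes are acidic organelles in which glycans, lipids, nucleic acids and proteins delivered by endocytosis, phagocytosis and autophagy are broken down. Most of their soluble enzymes carry a mannose phosphate tag and are sorted from the Golgi by receptors, and the transcription factor TFEB and its relatives raise many of their genes together through a short palindromic element near the start site. In brain all cell types have lysosomes, and microglia, which engulf debris and amyloid, are rich in them. Loss of single members causes lysosomal storage diseases, many of which affect neurons.

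RNA was sequenced from mouse brain in 18 libraries, 6 in each of 3 groups: WT mice on control diet, 5xFAD mice on control diet and 5xFAD mice on fucose diet, each diet given for 1 month. 5xFAD mice carry human transgenes with familial Alzheimer's disease mutations, driven by elements of the mouse Thy1 gene and therefore expressed mainly in neurons, and both 5xFAD groups carry them. Fucose is a sugar of glycoproteins. The labels give no brain region, age, sex or batch, and do not say that libraries come from separate animals, so p-values measure the spread between libraries, which may be technical.

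Reads assigned to genes, as recovered from the deposited values, numbered 31.45 to 44.23 M per library (median 38.93 M). Thy1, whose elements the transgenes contain, was higher in all 12 5xFAD libraries than in any WT library, which matched the genotype labels (log2 fold change 1.51 ± 0.106 SE in 5xFAD on control diet). Xist, the RNA that coats the silenced X in female cells, was low in 1 library of each group. In bulk tissue, more cells of a type and more RNA per cell cannot be told apart. Of 12 genes that mark microglia, 7 were called higher in 5xFAD than in WT on control diet, as were 1.97% of all tested genes. None of the 12 was at 0 in any library. Their summed level was 12689 to 16484 normalized counts in WT, 26664 to 34627 in 5xFAD on control diet and 23103 to 33812 in 5xFAD on fucose. The part of these markers in the results below was not tested.

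Promoter sequence was looked up for the members because lysosomal genes are known for a shared element, CACGTG. RefSeq (GRCm38.p6) held a window from 250 bases before to 50 bases after the start site for 34 of the 37 genes, in 39 windows. Galns, Npc1 and Asah1 were not matched. CACGTG, which reads the same on both strands, was present in 8 of the 39 windows (20.5%), against 7.15% of 32851 windows of the same length over all genes. The longer GTCACGTG, which contains it, was searched on both strands and was present in 7 windows (17.9%, against 2.25% of all). The element was taken because it is known from lysosomal genes, which favours higher shares here, so no conclusion is drawn from them. GAGGAAGT, a purine-rich sequence like those bound by myeloid ETS factors, was in 1 window, that of Gusb (2.56%, against 3.2% of all, both strands). The matches of the 8 genes lay 15 to 149 bases before the RefSeq start site. Some RefSeq start sites lie inside the gene as bounded in the deposited table. The printed matches of Cln3 (gene chr7:126571207-126585817) and Naglu (chr11:101070012-101077672) lie within these bounds, and that of Sgsh (chr11:119343425-119355536) crosses their edge. Matches are shown with 10 bases on each side, with CACGTG in capitals, 1 match per gene:
Naglu, chr11:101070011-101070036, plus strand: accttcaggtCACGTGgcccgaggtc
Lamp1, chr8:13159123-13159148, plus strand: tgccgactggCACGTGaccacatcac
Mcoln1, chr8:3500438-3500463, plus strand: tcgcgcttgtCACGTGttcagttcag
Cln3, chr7:126583342-126583367, minus strand: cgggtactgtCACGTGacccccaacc
Glb1, chr9:114401020-114401045, plus strand: gcttctgagtCACGTGgcctacagag
Sgsh, chr11:119355524-119355549, minus strand: gcctgccgtgCACGTGaccgtgggga
Arsa, chr15:89477425-89477450, minus strand: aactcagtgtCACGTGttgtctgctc
Gaa, chr11:119267813-119267838, plus strand: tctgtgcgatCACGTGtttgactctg

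The 250 bases before the RefSeq start site are shown for the member with the most matches, Lamp1, which has 4. They are also shown for Cd68 and Laptm5, which have no match and the largest changes described below. The deposited start of Laptm5 is 130913125, so most of its printed stretch lies inside the deposited gene and little sequence before that start was searched. Capitals again mark CACGTG.
Lamp1, chr8:13158911-13159160, plus strand: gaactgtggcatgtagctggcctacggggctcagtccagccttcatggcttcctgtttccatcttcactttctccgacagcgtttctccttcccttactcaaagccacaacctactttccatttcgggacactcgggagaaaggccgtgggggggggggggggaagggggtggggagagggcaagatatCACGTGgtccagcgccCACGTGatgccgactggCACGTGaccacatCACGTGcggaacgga
Cd68, chr11:69666171-69666420, minus strand: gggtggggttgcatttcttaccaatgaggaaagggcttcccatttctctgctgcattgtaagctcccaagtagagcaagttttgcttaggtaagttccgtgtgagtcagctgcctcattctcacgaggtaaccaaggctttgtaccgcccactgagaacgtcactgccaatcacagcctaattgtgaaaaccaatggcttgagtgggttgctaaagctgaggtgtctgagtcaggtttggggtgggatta
Laptm5, chr4:130913066-130913315, plus strand: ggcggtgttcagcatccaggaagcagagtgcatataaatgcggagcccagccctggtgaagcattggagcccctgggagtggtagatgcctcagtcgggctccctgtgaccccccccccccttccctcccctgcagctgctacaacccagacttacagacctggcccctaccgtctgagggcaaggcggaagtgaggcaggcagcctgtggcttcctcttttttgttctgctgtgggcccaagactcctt

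The first comparison asks which lysosomal genes differ between 5xFAD and WT brain on control diet. 10 of the 37 genes rose and none fell: the glycosidase genes Man2b1, Gusb, Naglu and Hexa, the cholesterol carrier gene Npc2, the membrane protein genes Cd68, Laptm5 and Lamp2, and Grn and Dnase2a. Their increases ran from 1.29-fold for Lamp2 to 6.08-fold for Cd68, and 5 of them exceeded 2-fold. A gene is called where its adjusted p is under 0.05 in limma on log2(normalized count + 1), adjusted by the Benjamini-Hochberg method over 18808 tested genes. By this rule 1.97% of all tested genes were called higher and 0.165% lower. The median log2 fold change of the 37 was 0.22, beside -0.0078 over all tested genes, and 32 of the 37 had a positive value. An unadjusted limma p under 0.05 was found for 19 of the 37, beside 2150 of all 18808, and for none of the 5 negative values. The values of Manba, Neu1, Sgsh and Smpd1, none of them called and all within 0.08 of 0, changed sign in at least 1 alternative. In 11 of the 37 every 5xFAD library was above every WT library, which held for 1.8% of all tested genes.

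**Figure D1:**
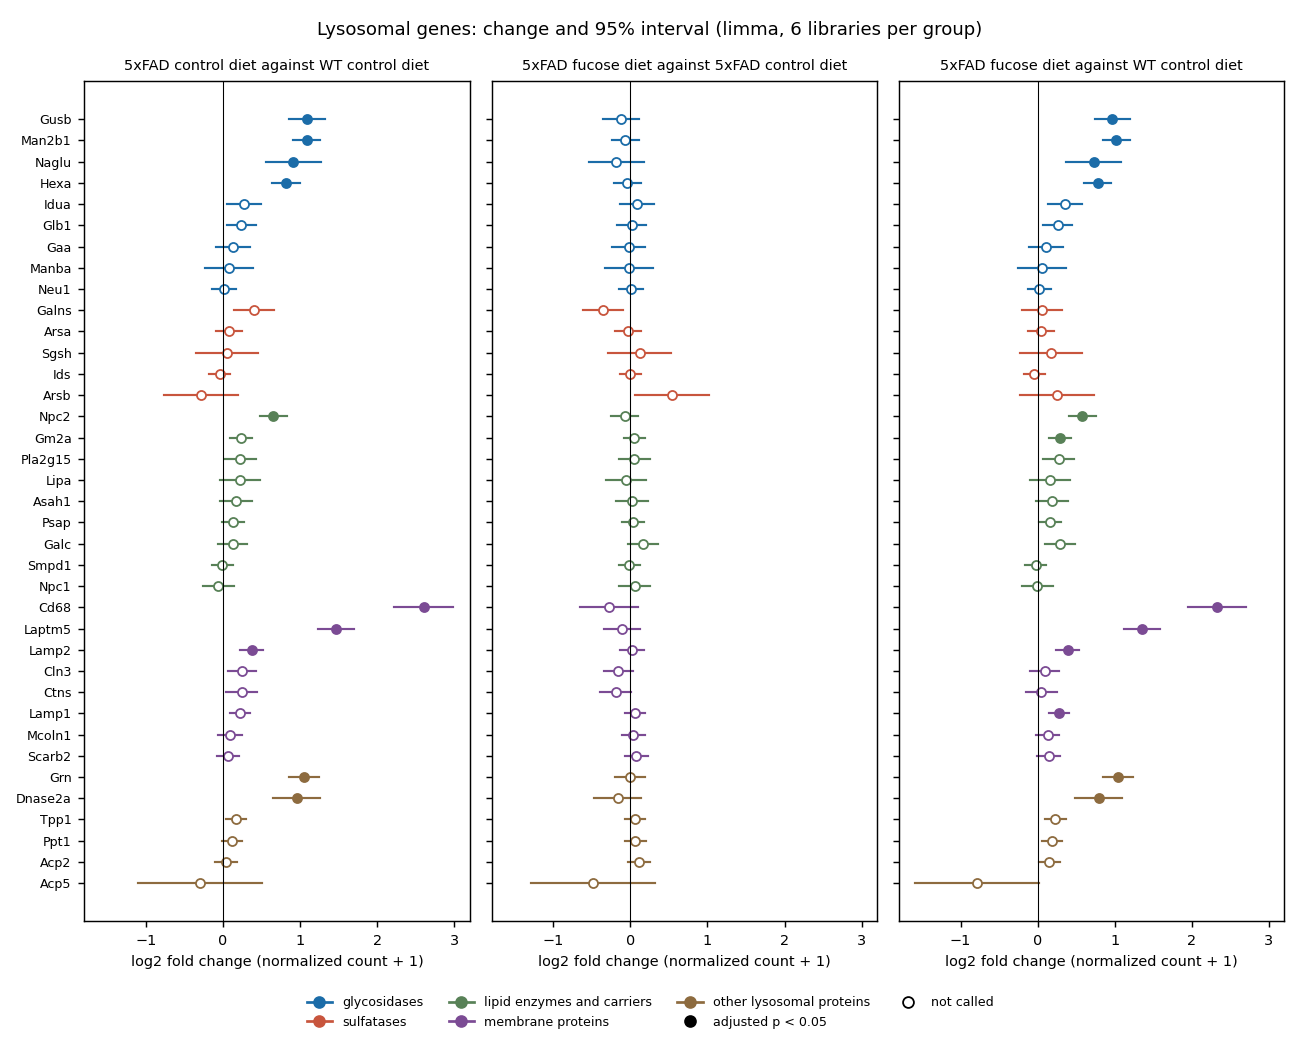
Log2 fold change of each of the 37 genes (points) with its 95% interval (lines) in the 3 comparisons, from limma on log2(normalized count + 1) with 6 libraries per group; filled points passed an adjusted p of 0.05 and colours mark the classes. In the left panel 10 genes are filled, all to the right of 0, in the middle panel none is filled, and in the right panel 12 are.

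Glycosidases remove sugars from glycoproteins, glycolipids and glycosaminoglycans. 4 of the 9 rose, all 9 had a positive log2 fold change (Manba and Neu1 turned negative in some fits that left out 1 library), and the median was 0.27. Man2b1 (ENSMUSG00000005142.10, chr8:85083270-85098282 in mm10, plus strand) encodes the alpha-mannosidase that trims mannose from N-glycans. Its WT libraries held 1985 to 2613 normalized counts (median 2358) and the 5xFAD control libraries 4085 to 6012 (median 4915). The groups did not overlap, and the lowest 5xFAD library was far above the highest WT library. The fold change was 2.12 (log2 1.09 ± 0.0859 SE, limma adjusted p = 8.39e-09).

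Gusb (ENSMUSG00000025534.17, chr5:129989011-130003049, minus strand) encodes beta-glucuronidase, which acts on glycosaminoglycans. It had 700.04 to 896.7 normalized counts in WT (median 800.6) and 1457 to 2089 in 5xFAD (median 1689). All 5xFAD libraries were above all WT libraries, with a 2.13-fold change (log2 1.09 ± 0.111 SE, limma adjusted p = 4.30e-07). Hexa (ENSMUSG00000025232.7, chr9:59539667-59565105, plus strand) encodes the alpha subunit of beta-hexosaminidase, which degrades ganglioside GM2. It went from 2543.5 to 3041.5 normalized counts in WT (median 2756) to 4568 to 5184 in 5xFAD (median 4974), again without overlap. The fold change was 1.76 (log2 0.82 ± 0.0854 SE, limma adjusted p = 6.43e-07). Of the exon bases of Hexa, 12.8% are shared with Tmem202 on the opposite strand.

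Naglu (ENSMUSG00000001751.9, chr11:101070012-101077672, plus strand) encodes alpha-N-acetylglucosaminidase, an enzyme of heparan sulfate breakdown. WT libraries had 553 to 829.3 normalized counts (median 714) and 5xFAD libraries 1013 to 1717 (median 1369.9). The groups did not overlap, but the 5xFAD libraries spread widely, with replicates 1, 2 and 5 at 1601 to 1717 and the other 3 at 1013 to 1139. The fold change was 1.88 (log2 0.91 ± 0.171 SE, limma adjusted p = 0.00261). The remaining glycosidase genes were not called. Idua, for the iduronidase of dermatan and heparan sulfate, was at a log2 fold change of 0.27 ± 0.106 SE (limma adjusted p = 0.276), and Glb1, for beta-galactosidase, at 0.24 ± 0.0913 (0.263). Gaa, for the glucosidase that degrades glycogen, was at 0.13 ± 0.105 and Manba, for beta-mannosidase, at 0.08 ± 0.151. Neu1, for the sialidase, had the largest p of the class (0.845). Its libraries held 2734 to 3676 normalized counts in WT (median 3125) and 3029 to 3407 in 5xFAD (median 3171), the 5xFAD range lying inside the WT range, and the 95% interval of its log2 fold change ran from -0.14 to 0.17.

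Sulfatases remove sulfate groups from glycosaminoglycans and sulfatide and need an activating step by Sumf1. None of the 5 was called, and the median log2 fold change was 0.05. At the share over all tested genes, 1.97% higher and 0.165% lower, a list of 5 would hold few calls or none. By limma 1 of the 5 had an unadjusted p under 0.05, as did 2150 of all 18808 genes. Galns, for the sulfatase of keratan and chondroitin sulfate, had 287.8 to 477 normalized counts in WT (median 392.2) and 469.2 to 538.1 in 5xFAD (median 521.2). The groups overlapped only through the highest WT library, replicate 2, and the log2 fold change of 0.40 ± 0.126 SE was not called (limma adjusted p = 0.121). Sgsh, for the sulfamidase of heparan sulfate, had the largest p of the class (0.797), with 194.3 to 308.1 normalized counts in WT and 152.5 to 426.7 in 5xFAD. Ids, for the iduronate sulfatase, was at -0.04 ± 0.0668 and Arsa, for the sulfatase of sulfatide, at 0.08 ± 0.0827. Arsb, for arylsulfatase B, was at -0.29 ± 0.228. Arsb shares 39.9% of its exon bases and Sgsh 21.6% with genes on the opposite strand, and because the strandedness of the counting is not given in the sources used here, such reads could not be assigned to one gene.

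Of the 9 lipid-handling genes 1 rose, where 1.97% of all tested genes were called higher, and the median log2 fold change was 0.16. Npc2 (ENSMUSG00000021242.8, chr12:84754560-84773112, minus strand) encodes the soluble carrier that hands cholesterol to the membrane protein Npc1 for export. It had 3384 to 3940.1 normalized counts in WT (median 3653) and 4792 to 6800.2 in 5xFAD (median 5759.6), without overlap. The fold change was 1.57 (log2 0.65 ± 0.0861 SE, limma adjusted p = 2.28e-05). Its partner Npc1 was at a log2 fold change of -0.06 ± 0.0969 SE (limma adjusted p = 0.865), with an interval from -0.26 to 0.14, where the interval of Npc2 was 0.47 to 0.83.

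Gm2a, which encodes the activator that presents ganglioside GM2 to beta-hexosaminidase, was just below the line of calling. It had 2941 to 3568 normalized counts in WT (median 3333) and 3541 to 4127 in 5xFAD (median 3853), the ranges overlapping at their edge (log2 0.24 ± 0.0675 SE, limma adjusted p = 0.0781). Smpd1, for acid sphingomyelinase, had the largest p of the class (0.906), with medians of 5394 and 5455 normalized counts in WT and 5xFAD. The other lipid genes lay between 0.13 and 0.22 on the log2 scale: Galc for the myelin galactolipids, Psap for the precursor of the saposins, Asah1 for ceramide, Lipa for cholesteryl esters and Pla2g15 for phospholipids. None of these was called.

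Among the 8 membrane proteins 3 rose, all 8 had positive values, and the median log2 fold change was 0.24. Cd68 (ENSMUSG00000018774.13, chr11:69664213-69666153, minus strand) encodes a heavily glycosylated protein of the LAMP family found in macrophages and microglia. Its 6 WT libraries had 295.7 to 587.1 normalized counts (median 474.6) and the 5xFAD libraries 2264 to 3834 (median 2793). The lowest 5xFAD library stood well clear of the highest WT library. The fold change was 6.08 (log2 2.60 ± 0.182 SE, limma adjusted p = 1.13e-08), the largest of the 37.

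Laptm5 (ENSMUSG00000028581.17, chr4:130913125-130936141, plus strand) encodes a multispanning lysosomal protein of blood-derived and microglial cells. It had 2398 to 3321.5 normalized counts in WT (median 2834) and 6836 to 9502 in 5xFAD (median 7723), without overlap, and its adjusted p was the smallest of the 37 (fold 2.76, log2 1.46 ± 0.112 SE, limma adjusted p = 6.34e-09). Lamp2 (ENSMUSG00000016534.15, chrX:38401357-38456454, minus strand) and Lamp1 encode the main glycoproteins that line the lysosomal membrane. Lamp2 had 2384 to 2970.0 normalized counts in WT (median 2679.9) and 3219 to 3573 in 5xFAD (median 3464), without overlap, a 1.29-fold change (log2 0.37 ± 0.0724 SE, limma adjusted p = 0.0029).

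Lamp1 had 10708 to 11959.8 normalized counts in WT (median 11543) and 12452 to 14518 in 5xFAD (median 13108). Its groups did not overlap either, yet its log2 fold change of 0.22 ± 0.0626 SE was not called (limma adjusted p = 0.0774). Cln3, whose human counterpart is mutated in a juvenile form of neuronal ceroid lipofuscinosis, had 844.4 to 1065 normalized counts in WT (median 981) and 976.2 to 1289 in 5xFAD (median 1140.5). The ranges overlapped and its log2 value of 0.24 ± 0.0889 SE was not called (limma adjusted p = 0.231). Ctns, for the cystine exporter, was at 0.24 ± 0.0978 and Mcoln1, for a cation channel of the lysosome, at 0.09 ± 0.075. Scarb2, for the receptor that brings glucocerebrosidase to the lysosome, had the largest p of the class (0.39), at 3796.5 to 4516 normalized counts in WT and 3833 to 4892 in 5xFAD.

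2 of the 6 other genes rose, where 1.97% of all tested genes were called higher. Grn (ENSMUSG00000034708.11, chr11:102430315-102437048, plus strand) encodes progranulin, a secreted and lysosomal protein cut into granulins. It had 3047 to 3958 normalized counts in WT (median 3436) and 5873 to 8211 in 5xFAD (median 7294), without overlap (fold 2.07, log2 1.05 ± 0.0945 SE, limma adjusted p = 6.45e-08). Dnase2a (ENSMUSG00000003812.13, chr8:84908560-84922915, plus strand) encodes the acid nuclease that degrades engulfed DNA. It had 199 to 324.1 normalized counts in WT (median 254.2) and 409.9 to 616.1 in 5xFAD (median 501.3), without overlap (fold 1.94, log2 0.96 ± 0.148 SE, limma adjusted p = 0.000181). Of its exon bases, 30% are shared with a gene on the opposite strand, Mast1.

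Ppt1 and Tpp1, for a thioesterase and a peptidase whose human counterparts are mutated in early forms of ceroid lipofuscinosis, were at log2 fold changes of 0.12 ± 0.0646 SE and 0.17 ± 0.0637, and Acp2, for an acid phosphatase, at 0.04 ± 0.068. None of the 3 was called. Acp2 had medians of 2020.4 and 2022 normalized counts in WT and 5xFAD. Acp5, for the tartrate-resistant acid phosphatase of osteoclasts and macrophages, was the scarcest member, at 23.6 to 74.4 normalized counts in WT and 11.1 to 54.1 in 5xFAD. Its log2 fold change of -0.30 ± 0.39 SE had an interval from -1.11 to 0.51, so a change within these bounds could not be resolved with these libraries.

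**Figure D2:**
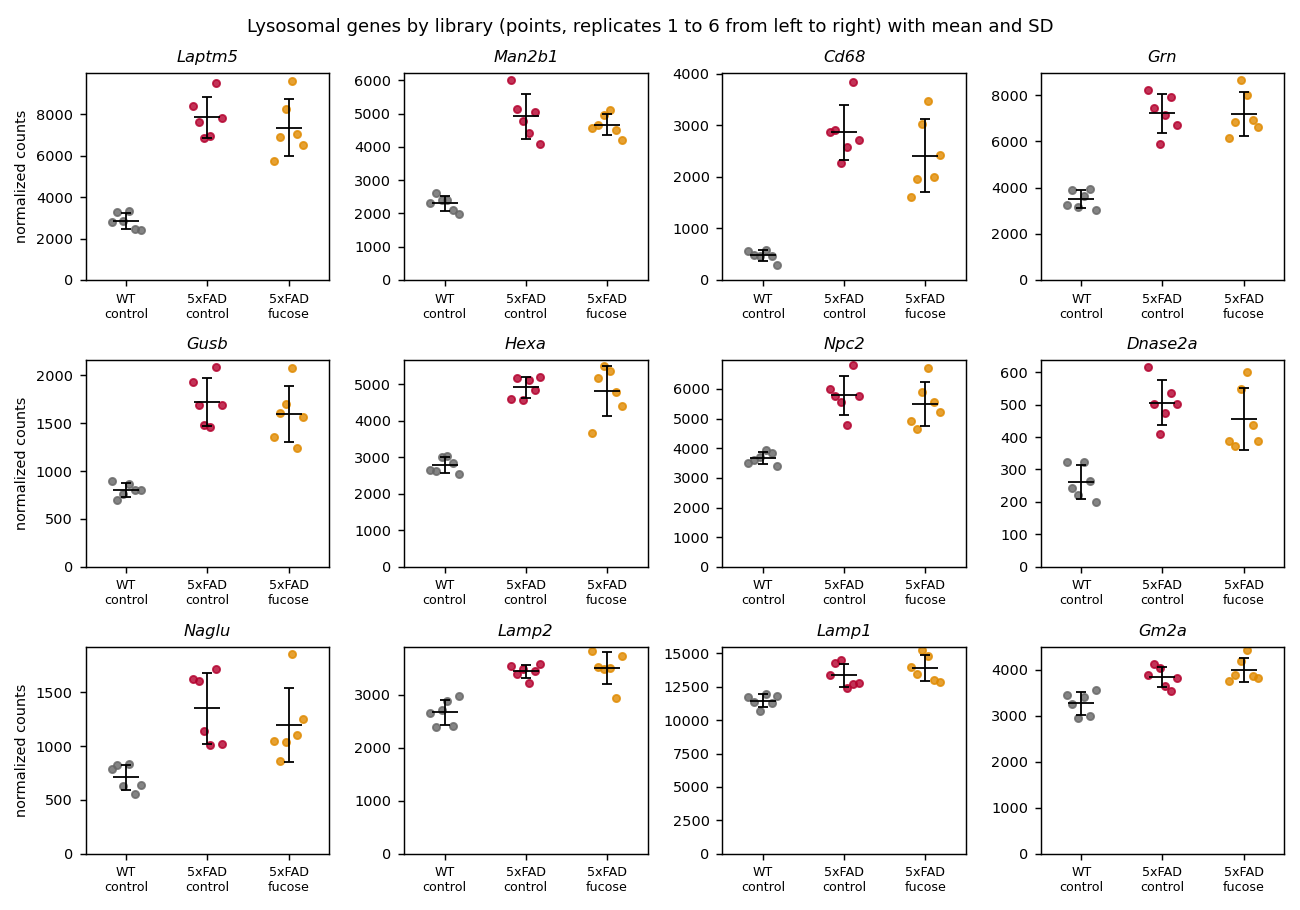
Normalized counts per library (points, replicates 1 to 6 from left to right in each group) with mean and SD (bars, n = 6) for the 12 genes with the smallest p in 5xFAD against WT on control diet; each axis starts at 0. For 11 of the 12 the 2 control-diet groups do not overlap (the edges of Gm2a do), and the 2 5xFAD groups overlap for all 12.

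The genes that rose were not the most abundant of the 37. On the scale of normalized counts per kb of exon, which allows levels to be set beside each other between genes, Psap led in WT at 28323 ± 1839 (SD, n = 6), followed by Lamp1 at 4288, Gaa at 3909 and Ids at 2359. None of these 4 was called. The median level in WT was 332.4 per kb over the 10 genes that rose and 466.6 over the 27 that were not called. In 5xFAD on control diet the medians were 837.5 and 541.1. The 10 were picked for high values in these same 5xFAD libraries, and that choice favours a higher median there. Cd68 moved from rank 20 of 37 in WT to rank 6 in 5xFAD on control diet and rank 8 on fucose, and Man2b1 from rank 22 to rank 16 in both. Psap, Lamp1 and Gaa kept ranks 1, 2 and 3 in all 3 groups, and Acp5 rank 37. These level figures are descriptions, with no test between genes. The length used is that of all exons in a gene's M21 models together, 1.257 kb for Cd68 and 8.026 kb for Man2b1. Levels and ranks therefore depend on those models, which can be longer than the main transcript.

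**Figure D3:**
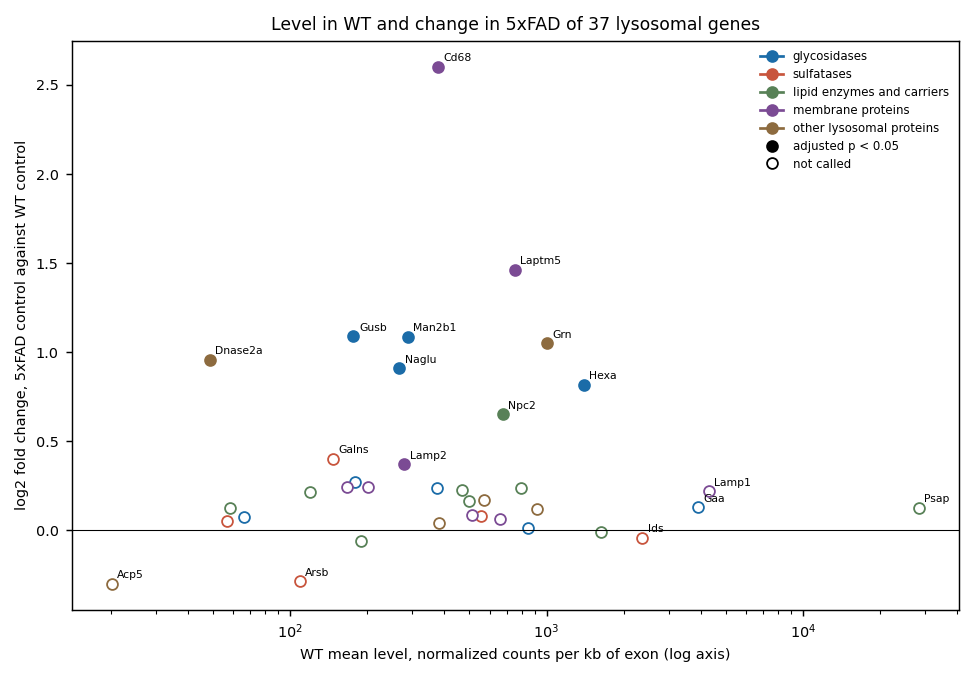
Mean level in WT (x axis, normalized counts per kb of exon, log scale) and log2 fold change in 5xFAD against WT on control diet (y axis) of the 37 genes; filled points passed an adjusted p of 0.05, colours mark the classes, and called or outlying genes are named. The filled points lie between 48.7 and 1397 per kb, and the 4 most abundant genes, Psap, Lamp1, Gaa and Ids, are open points between -0.04 and 0.22.

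The promoters printed above divided as follows. All 10 genes that rose had a RefSeq window, and 1 of them, Naglu, held CACGTG. Of the 27 not called, 24 had a window and 7 held it. The log2 fold changes of these 7 were 0.24 for Cln3 and Glb1, 0.22 for Lamp1, 0.13 for Gaa, 0.09 for Mcoln1, 0.08 for Arsa and 0.05 for Sgsh. Cd68 and Laptm5 had no match of any of the 3 sequences searched. A match is a run of letters and not a measured binding site, and its absence from these windows says nothing of binding elsewhere.

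The second comparison asks whether 1 month of fucose diet changed lysosomal transcripts in 5xFAD brain. None of the 37 genes was called by limma in either direction, and none was separated between the diets in all libraries. Over all tested genes 0% were called (0 genes), and 0.186% did not overlap between the diets. At an unadjusted p under 0.05 limma found 2 of the 37 genes and 1005 of all 18808. edgeR and DESeq2 found 948 and 1035 of all genes at that p, 2 members each, and also called 0. The median log2 fold change of the 37 was -0.00068, and 18 values were positive and 19 negative. The 95% interval lay inside 1.5-fold in both directions for 33 of the 37 genes (11526 of all 18808). The 4 with a wider interval were Acp5, Arsb, Cd68 and Galns.

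Galns had the smallest p. Its 5xFAD libraries held 469.2 to 538.1 normalized counts on control diet (median 521.2) and 328.4 to 496.3 on fucose (median 388.8). 5 of 6 fucose libraries were below all control libraries, while replicate 4 overlapped. The log2 difference was -0.35 ± 0.126 SE (limma unadjusted p = 0.0103, adjusted p = 0.822). Beside WT on control diet, where the median was 392.2, the fucose group differed by 0.05 ± 0.126.

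Arsb had 373.2 to 681.6 normalized counts on control diet (median 533.8) and 572.6 to 1308 on fucose (median 658.8). The groups overlapped and the upper part of the fucose range rests on replicate 6, at 1308, and replicate 2, at 928.5. The log2 difference was 0.54 ± 0.228 SE (limma unadjusted p = 0.0287, adjusted p = 0.822). Ctns was at 695.2 to 886 on control diet and 535.4 to 795.5 on fucose (log2 -0.19 ± 0.0978), with overlap. Galc was at 863.3 to 1075 and 933.1 to 1202 (0.17 ± 0.0922), also with overlap. Cln3 was at 976.2 to 1289 and 880.05 to 1159 (-0.15 ± 0.0889), and its groups overlapped too; all 3 had a limma adjusted p of 0.822.

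Of the 10 genes raised in 5xFAD on control diet, 9 had a negative difference between fucose and control diet, and none was called. Among all 18808 tested genes 9584 values were negative. The 10 were picked for high values in the same 5xFAD control libraries, and that choice alone favours negative differences. No conclusion is therefore drawn from this count. Cd68 had 1605 to 3473 normalized counts on fucose (median 2216) against 2264 to 3834 on control diet, a log2 difference of -0.28 ± 0.182 SE whose interval ran from -0.66 to 0.10. The groups overlapped, with 3 of the 6 fucose libraries below every control library. Laptm5 was at -0.11 ± 0.112, Gusb at -0.12 ± 0.111, Dnase2a at -0.17 ± 0.148 and Naglu at -0.18 ± 0.171. Grn was at -0.01 ± 0.0945, Hexa at -0.04 ± 0.0854, Man2b1 at -0.07 ± 0.0859 and Npc2 at -0.07 ± 0.0861. Lamp2 was at 0.02 ± 0.0724. A p above the threshold does not show that the diets acted alike, and the intervals give the sizes that remain possible.

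The third comparison sets 5xFAD mice on fucose diet beside WT mice on control diet. It shares its WT libraries with the first comparison and its fucose libraries with the second, and genotype and diet differ together in it, so their parts cannot be told apart. 12 of the 37 genes rose and none fell, where 1.91% of all tested genes were higher and 0.0904% lower. These were the 10 genes of the first comparison together with Lamp1 and Gm2a. Of 23 alternatives, 6 ended the call of Naglu, among them the replicate block and leaving out WT replicate 3, 5 or 6 or fucose replicate 6 (highest adjusted p 0.0668). The call of Gm2a ended in 5, among them leaving out WT replicate 3 or 5 or fucose replicate 3 or 4 (0.0672), and that of Lamp1 without fucose replicate 3 (0.0592). In 11 of the 37 every fucose library was above every WT library (1.41% of all tested genes). Lamp2 was the called gene whose groups overlapped, its lowest fucose library at 2942 lying under the highest WT library at 2970.0.

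The values of the first comparison and of the third comparison are given side by side, with no measure of their likeness because of the shared libraries. Cd68 was 6.08-fold and 5.01-fold above WT on control and fucose diet, Laptm5 2.76-fold and 2.56-fold, Man2b1 2.12-fold and 2.03-fold, and Grn 2.07-fold and 2.06-fold. Lamp1 was 1.16-fold above WT on control diet and 1.21-fold on fucose (log2 0.28 ± 0.0626 SE, limma adjusted p = 0.0142), with 12880 to 15261 normalized counts on fucose. Gm2a was 1.18-fold and 1.22-fold above WT (log2 0.29 ± 0.0675 on fucose, limma adjusted p = 0.0194), with 3745 to 4422 normalized counts on fucose. That these 2 genes passed on fucose and not on control diet shows no difference between diets: their own differences between the diets were 0.06 ± 0.0626 and 0.05 ± 0.0675.

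**Figure D4:**
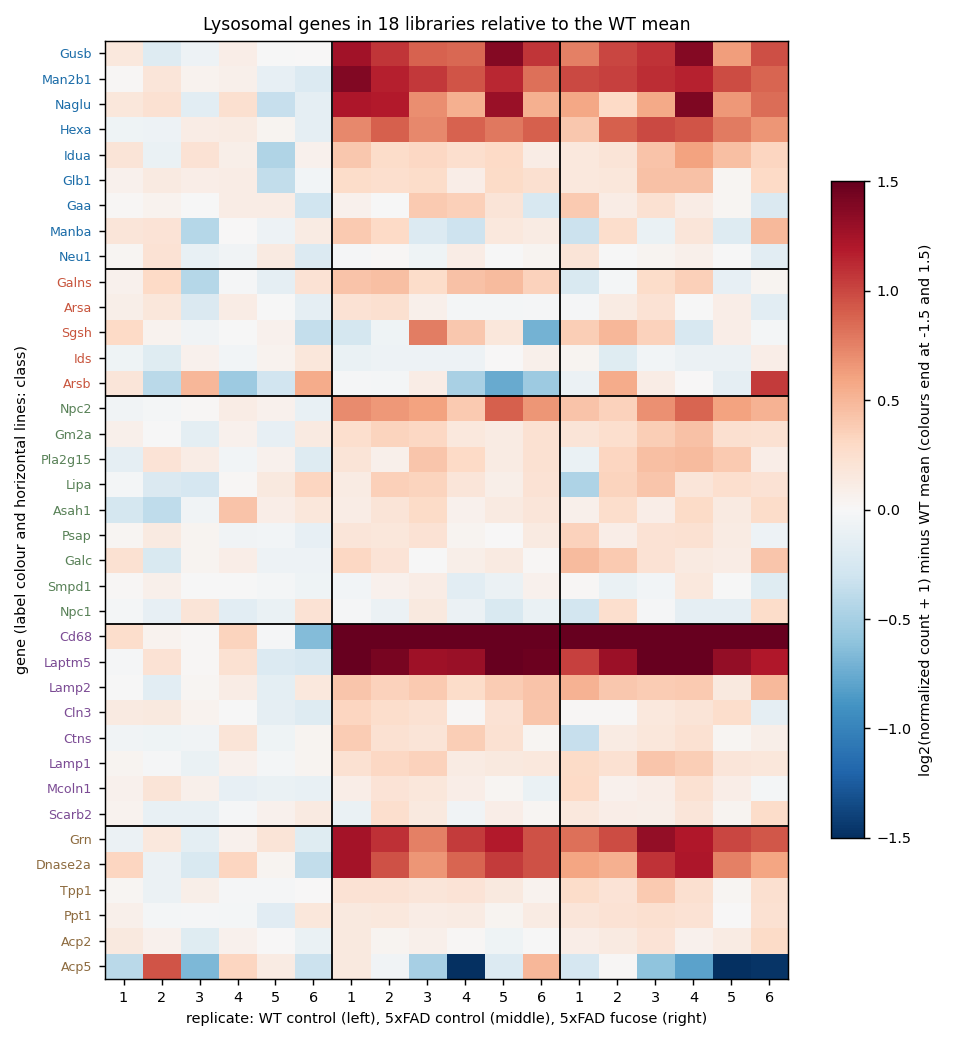
Each cell gives log2(normalized count + 1) of a gene in a library minus the gene's WT mean, with colours ending at -1.5 and 1.5, for the 37 genes (rows, by class) and 18 libraries (columns, replicates 1 to 6 of WT control, 5xFAD control and 5xFAD fucose). The 10 genes that rose are red in all 12 5xFAD libraries, and the sulfatase rows show no shared colour by group.

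Single libraries ran high or low for many of the 10 risen genes together. In WT, replicate 6 was lowest for 7 of the 10 and replicate 4 highest for 6. In 5xFAD on control diet, replicate 5 was highest for 5, and replicates 3 and 4 were lowest for 5 and 4. On fucose, replicate 4 was highest for 7 and replicate 1 lowest for 4. The summed level of the 12 microglia markers was lowest of its group in WT replicate 6 (12689 normalized counts), highest in 5xFAD control replicate 5 (34627) and lowest in replicate 3 (26664), and highest in fucose replicate 4 (33812) and lowest in replicate 1 (23103). The order of the sum was not that of the genes throughout: in WT its highest value was in replicate 3, and 5xFAD control replicate 4 had the second highest sum of its group (28961). Among the 27 genes not called, libraries also ran high or low for several genes at once. WT replicate 2 was highest for 11 of them and replicate 3 lowest for 8, 5xFAD control replicate 3 was highest for 9 and replicate 5 lowest for 8, and fucose replicate 4 was highest for 7 and replicate 1 lowest for 9. The median coefficient of variation over the 37 genes was 10.2% in WT, 8.65% in 5xFAD on control diet and 11.7% on fucose, and Acp5 and Arsb were among the genes over 20% in every group.

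Other genes of the lysosome were read in the same fit: 82 genes, of which 78 passed the filter. 5 rose in 5xFAD against WT on control diet and none fell, with a median log2 fold change of 0.04, where 1.97% of all tested genes were called higher and 0.165% lower. Mcoln2, at 0 to 9.48 normalized counts in WT and 9.88 to 24.3 in 5xFAD, had a log2 value of 2.12 ± 0.767 SE that was not called (limma adjusted p = 0.222). Hpse, for the heparanase that cuts heparan sulfate chains, had 14.2 to 59.5 normalized counts in WT (median 46.1) and 112.3 to 224.3 in 5xFAD (median 178.7), without overlap (log2 2.18 ± 0.292 SE, limma adjusted p = 2.99e-05). Among the others were Cd63, a tetraspanin of late endosomes (0.79 ± 0.112), Lgmn, an asparaginyl protease (0.48 ± 0.0699), and Scpep1, a serine carboxypeptidase (0.40 ± 0.0763).

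The machinery around the hydrolases was read in lists of 10 to 16 tested genes, which at the share over all genes, 1.97% higher and 0.165% lower, would hold few calls or none. None of 16 genes of sorting and delivery was called by limma, and 2 had an unadjusted p under 0.05, as did 2150 of all 18808 genes. Vps26a and Vps11, of the retromer and of vesicle tethering, were both at a log2 fold change of 0.17, and the mannose phosphate receptor gene M6pr at 0.11 ± 0.0573 SE. None of 11 tested genes of transcriptional and mTOR control was called, and 0 had an unadjusted p under 0.05. Tfeb had medians of 643.3 normalized counts in WT and 760.2 in 5xFAD on control diet with overlapping ranges (0.16 ± 0.144, limma adjusted p = 0.739), and Zkscan3, Mtor and Fnip2 were at -0.21, -0.10 and 0.14. None of 10 genes of the Ragulator and Rag complex was called, the smallest p belonging to Rragd (-0.22 ± 0.0943). Between the diets in 5xFAD none of the 78 genes was called by limma, and 6 had an unadjusted p under 0.05, beside 1005 of all 18808. In 1 of the 78, Tmem175, a potassium channel gene of the lysosome, every fucose library (1392 to 1549.5 normalized counts) was above every control library (1244 to 1356), with a log2 difference of 0.15 ± 0.0687 SE (limma adjusted p = 0.822; 0.186% of all tested genes did not overlap). Mcoln2, a channel gene with 9.88 to 24.3 normalized counts on control diet and 0 to 28.0 on fucose, had the lowest value of the list, a log2 difference of -1.82 ± 0.767 SE (limma adjusted p = 0.822). In 5xFAD on fucose against WT, 7 of the 78 rose, where 1.91% of all tested genes were called higher: the same 5 with Dpp7 (0.36 ± 0.0924) and Slc29a3 (0.51 ± 0.0986).

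Markers of other cells stood beside these changes as follows. Of the 12 microglia markers, C1qa rose by 1.65 ± 0.142 (SE) on the log2 scale, Csf1r by 0.85 ± 0.0836 and Siglech by 0.94 ± 0.143, and the median of the list was 0.88. Tmem119 (0.19 ± 0.107) and P2ry12 (0.36 ± 0.133) were not called. In 5xFAD on fucose against WT 6 of the 12 rose, where 1.91% of all tested genes were called higher. None of the 12 was called between the diets by limma, and 0 of all 18808 genes were. No marker of astrocytes, neurons, oligodendrocytes, endothelium, border macrophages, choroid plexus, blood or osteoclasts was called in any comparison. In 5xFAD against WT on control diet 6 of the 10 astrocyte markers had an unadjusted p under 0.05, as did 2150 of all 18808 genes. Of the 6, 4 were higher and 2 lower, with Aqp4 the largest (0.54 ± 0.151, limma adjusted p = 0.0784). In this fit all 10 neuron markers had values below 0, from -0.22 to -0.0031, and all 10 oligodendrocyte markers values above 0, from 0.0068 to 0.34, and none of these was called. The summed level of the 6 border macrophage markers was 218.3 to 499.8 normalized counts in WT, 146.7 to 486.8 in 5xFAD on control diet and 258.4 to 722.3 on fucose. Their part in the lysosomal changes was not tested.

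**Figure D5:**
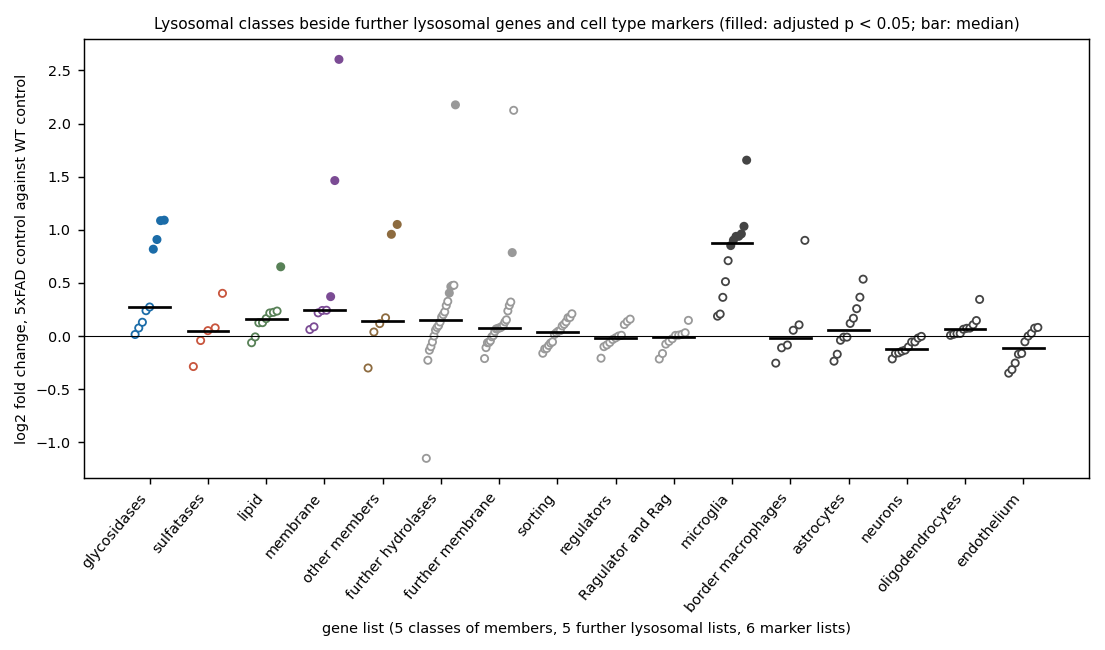
Log2 fold change in 5xFAD against WT on control diet of each tested gene (points; filled where adjusted p is under 0.05) by list, with the list's median (bar): the 5 classes of the 37 genes, 5 lists of further lysosomal genes and 6 marker lists. Filled points are in 4 of the 5 classes, in further hydrolases and membrane proteins and in microglia, whose median of 0.88 is the highest bar.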

How the data were processed

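Poly(A)-selected RNA was made into 18 mouse brain libraries, per the labels' protocols. Per the submitters' processing notes the tools were featureCounts 2.0.3, HISAT2 2.2.1, Trimmomatic 0.39 and DESeq2 2.11.40.8, with mm10. Which annotation and strand setting the counting used is not given in the sources used here. Per the file's values, the authors deposited a normalized count signal, which equals gene counts divided by a size factor for each library: 100% of values were whole multiples of 1 read (tolerance 0.001 reads), so reads were recovered. 1 read was worth 0.886 to 1.24 normalized counts, and a count of 0 allows up to 3 reads, which covers counting error only. 2 stray columns of values were not used.

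Groups were compared with limma 3.58.1 (R 4.3.3) on log2(normalized count + 1), all libraries entering 1 model with trend and robust options, and Benjamini-Hochberg adjustment. The low-count filter was filterByExpr from edgeR 4.0.16 (minimum count 10), which left 18808 genes. A fold change on this scale understates the change of genes with low counts. The fit was tested on simulated data, whose design and outcome are not given here, so no result rests on that test. Alternatives were pseudocounts of 0.5 and 8, no filter, a mean of at least 100, TMM scaling, edgeR quasi-likelihood, DESeq2 1.42.0, no trend, only the groups compared, a replicate block, leaving out each library, and leaving out the 3 low-Xist libraries. No replicates were copies of each other (chi-square per degree of freedom 14.9 to 70.1 over 45 pairs).

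The genes named are the 14 members with the smallest p in the first comparison and the 5 with the smallest p in the second, with their library ranges, the member of each class with the largest p in the first, and up to 3 genes of each further list by smallest p. Other members are given by level or log2 fold change, and Acp5 with its range because it is the scarcest. The members and lists were chosen with earlier results of these data known. Tfeb, Scpep1, Tmem119, Tmem175, P2ry12, Dpp7 and Slc29a3 were named after their values were seen. 1 gene that this rule takes is not reported here. Positions are 1-based mm10 coordinates from the deposited table, and 28 of the 37 equal GENCODE M21. Exon lengths and overlaps come from M21 gene models: 15 members share exon bases with another gene, 14 of them on the opposite strand. Promoters come from RefSeq, GRCm38.p6.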

Additional observations from a re-analysis of the deposited data

Results flagged for a closer look

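In each group of 6 libraries, the highest and lowest library of each of the 37 genes was set against the others, by the gap to its neighbour divided by the range of the group (Dixon's 95% critical value, which chance passes in about 1 in 20 groups). 4 of 111 gene and group sets passed, each for a low library and each for another gene.

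Glb1, for beta-galactosidase, was at 1193 normalized counts in 5xFAD control replicate 4, where the next library was at 1315. Gaa, for the glucosidase of glycogen, was at 15158 in WT replicate 6, where the next was at 18598. Lipa, for acid lipase, was at 580.7 in 5xFAD fucose replicate 1, where the next was at 911.9. Ppt1, for a palmitoyl thioesterase, was at 3386 in 5xFAD fucose replicate 5, where the next was at 3838. None of the 4 genes was called in any comparison.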

How the results depend on the processing

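The count of members that rose in 5xFAD against WT on control diet stayed at 10 in each fit that left out 1 library and was 10 to 12 in the other alternatives, 12 being with DESeq2, which added Gm2a and Lamp1. Between the diets it was 0 throughout. For 5xFAD on fucose against WT it was 12, 10 to 13 with 1 library left out and 11 to 13 otherwise, and no member fell in any fit. The calls lost there, of Naglu, Gm2a and Lamp1, are given beside that comparison. Tpp1 was added by edgeR, by DESeq2, without the 3 low-Xist libraries and without fucose replicate 5, and Pla2g15 without fucose replicate 1. The cause was not tested. No sign of a called gene reversed. Leaving out the 3 low-Xist libraries gave 10, 0 and 13 called members. The further lysosomal genes gave 5 to 6 in the first comparison, 0 in the second and 6 to 8 in the third. Requiring a mean of 100 removed Acp5.

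Replicate numbers recur in each group, but in most pairs libraries of the same number did not deviate together. Correlations were -0.17 to 0.33, over 0.1 in 2, 0 and 2 of 6 pairs, and the best match was their own number in 2, 1 and 2 of 6. The highest, 0.33, was that of replicate 3 of WT and 5xFAD on control diet. With the replicate number as a block 10, 0 and 11 members were called in the 3 comparisons. Limma then called 439, 0 and 412 of all tested genes, against 402, 0 and 376 without the block.

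Acp5 had 11.1 to 74.4 normalized counts, and its coefficient of variation within groups was 42.8% to 45.4%. Whether more depth would narrow its intervals was not tested. With 31.45 to 44.23 M reads assigned to genes per library, every other member had over 100 normalized counts in each library.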
